A study of Mus musculus with 35 samples.

Results

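The Anp32 genes encode acidic leucine-rich nuclear phosphoproteins, and 3 of them, Anp32a, Anp32b and Anp32e, were read from the 24411 gene rows of the Smg6-cKO germ cell data together with their 21 annotated transcripts. Anp32b was chosen because of its large rise in chromatoid bodies (CBs) of Smg6-cKO mice, and Anp32a and Anp32e were taken with it as its relatives, so their values in CBs are given as a description with no test. Spermatocytes and round spermatids are other libraries than those Anp32b was chosen from, although earlier results from them were known as well.

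SMG6 is an endonuclease of nonsense-mediated mRNA decay (NMD), the pathway that degrades mRNAs with a stop codon in an unusual context. In Smg6-cKO mice an exon of Smg6 flanked by loxP sites is deleted by a Cre recombinase driven from the Ngn3 promoter, which is active in early postnatal spermatogonia. The enriched fractions may also hold cells in which Cre was not expressed. Control (CTRL) mice carried the floxed allele on one or both chromosomes without Cre, and all animals were adults on a mixed C57Bl/6J and SV129 background. Polyadenylated RNA was sequenced from pachytene spermatocytes (Spc) and round spermatids (RS) enriched by sedimentation, in 3 cKO and 3 CTRL libraries for each. Total RNA was sequenced from CBs, the cytoplasmic germ granules of round spermatids, pulled down with an antibody to the RNA helicase DDX4 from the pooled testes of several mice, in 3 cKO and 4 CTRL libraries. The CB libraries are named here by the numbers in their column headers, 2, 3 and 4 for cKO and 1, 2, 3 and 5 for CTRL. The headers of CTRL libraries 2 and 3 begin with MVHCTRL and those of 1 and 5 with MCTRL. What this difference marks is not stated, and all cKO headers begin with MKO.

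ANP32 proteins share a leucine-rich repeat domain that binds other proteins and a long tail of aspartate and glutamate residues that binds basic proteins such as histones. ANP32A, also called PP32, is known as an inhibitor of protein phosphatase 2A (PP2A), as a promoter of apoptosome activity and as a partner of the mRNA-binding protein ELAVL1 in nuclear export. ANP32B is known as a histone chaperone and takes part in the export of selected mRNAs through the exportin XPO1, while ANP32E is the chaperone that removes the histone variant H2A.Z from nucleosomes. Germ cells replace most of their histones after meiosis, so histone chaperones are of interest in this tissue.

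The acidic tail is the feature that the members have in common at the level of sequence. Codons for aspartate and glutamate all start with GA, and they made up 88 of the 247 codons of Anp32a-201 (35.6%), 108 of the 272 codons of Anp32b-201 (39.7%) and 96 of the 260 codons of Anp32e-202 (36.9%). Within the last 100 codons their share was 63%, 73% and 64% in the same order, against a median of 11% and a 99th percentile of 27% over the 31328 annotated mouse coding transcripts with at least 200 codons. The first 10 codons of the longest unbroken run of such codons are printed for each member to show how alike these stretches are, with the first 2 bases of every codon in capitals. They read 5′ to 3′ on the plus strand of GRCm38, at chr9:62373650-62374655 across exons 4 and 5 of Anp32a-201, at chr4:46471428-46471457 in exon 6 of Anp32b-201 and at chr3:95937887-95937916 in exon 5 of Anp32e-202.
Anp32a: GAgGAtGAcGAcGAgGAaGAtGAgGAtGAg
Anp32b: GAtGAaGAtGAaGAaGAtGAgGAtGAaGAt
Anp32e: GAtGAaGAtGAgGAaGAtGAgGAcGAaGAt
The whole runs were 12, 17 and 11 codons long in Anp32a, Anp32b and Anp32e. In spite of this likeness, the longest stretch of identical bases was 17 between the transcripts of Anp32a and Anp32b, 20 between Anp32a and Anp32e and 16 between Anp32b and Anp32e, all shorter than the sequenced reads. A processed copy, Anp32b-ps1, shared an identical stretch of 101 bases with Anp32b, and reads inside it could not be told apart. That stretch is longer than a read of Spc or RS and shorter than a full-length read of CBs.

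Each gene lies on the plus strand of its own chromosome. Anp32a (ENSMUSG00000032249) spans chr9:62341293-62378812 with 10 annotated transcripts, Anp32b (ENSMUSG00000028333) spans chr4:46450902-46472657 with 1, and Anp32e (ENSMUSG00000015749) spans chr3:95929246-95947390 with 10. RefSeq promoter windows, from 250 bases before to 50 after the start in GRCm38.p6, were found for 3 of 3 members. Searched on both strands, the letters CCAAT, the core recognised by the factor NF-Y, stood in 37.4% of the 32851 windows, with 3 sites in Anp32a, 1 in Anp32b and 4 in Anp32e. One site of each member is printed with the bases around it, with the motif as it reads on the plus strand in capitals, since CCAAT was the only one of the 5 searched motifs that all members held.
Anp32a, chr9:62341248-62341276: gccaccaccactATTGGctggcgtccgaa
Anp32b, chr4:46450691-46450719: ggctcaggcgaaATTGGgtccgggagagc
Anp32e, chr3:95929211-95929239: ctaaggactcgaCCAATcccgttgggagg
The printed motifs begin 83, 223 and 34 bases before the start of Anp32a, Anp32b and Anp32e. The letters GGGCGG stood in 35.7% of all windows with 1, 3 and 0 sites in Anp32a, Anp32b and Anp32e, and CACGTG in 7.15% with 1 site in Anp32b alone among the members. Neither TGACGTCA (1.79% of windows) nor TATAAA (13.6%), searched likewise on both strands, stood in any of these windows.

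Libraries held 36419197 to 47355837 gene counts in Spc, 40237647 to 45391308 in RS and 2705277 to 12103906 in CBs, where cKO library 3 was the shallowest. Smg6 itself, in CPM (counts scaled to the same sum in each library), was at 190 to 202 in cKO Spc against 124 to 187 in CTRL, at 221 to 229 against 110 to 168 in RS and at 186 to 324 against 235 to 292 in CBs. These counts cover the exons outside the deletion and therefore check nothing about it. All 14 spermatocyte and 10 spermatid markers were detected in every Spc and RS library, and 10 of 10 spermatid markers and 10 of 10 late spermatid markers were higher in CTRL RS than in CTRL Spc by the test used throughout (adjusted p of at most 0.05). Reads per library were compared after TMM scaling with edgeR's quasi-likelihood test, with p-values adjusted over all genes tested, and a normalized count is the count after division by the scaled size of its library.

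In RS of Smg6-cKO mice the counts of the 3 members were about 3 times those of the controls with TMM scaling. With scaling by library size the folds were 4.51 for Anp32a, 4.2 for Anp32b and 4.92 for Anp32e. For Anp32b the normalized counts were 1778, 1312 and 1644 in the cKO libraries 1, 2 and 3 and 611.1, 578.6 and 542.1 in the CTRL libraries. Every cKO library was more than 2 times as high as every CTRL library. The means were 1578 ± 240 in cKO and 577.3 ± 34.5 in CTRL (SD, 3 libraries each), a fold change of 2.73 (log2 fold change 1.45, SE 0.13, adjusted p = 3.2e-05). Because these are bulk samples, fewer cells of a type and less RNA per cell cannot be told apart.

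Anp32a, the member known for inhibiting PP2A, followed at lower counts. Its normalized counts in RS were 281.4, 225.4 and 377.1 in cKO and 80.22, 113.7 and 106.9 in CTRL, with no overlap. From 100.2 ± 17.7 in CTRL to 294.6 ± 76.7 in cKO it rose 2.94-fold (log2 fold change 1.56, SE 0.25, adjusted p = 0.00071). Anp32e, the H2A.Z chaperone, was read at 304.1, 181.7 and 383.4 in cKO and at 96.73, 75.35 and 100.3 in CTRL. The groups again did not overlap, and cKO library 2 was the lowest cKO library for each of the 3 genes. The rise of Anp32e was 3.19-fold (289.7 ± 102 against 90.81 ± 13.5, log2 fold change 1.67, SE 0.3, adjusted p = 0.0012). Of all 17492 genes tested in RS, 38.4% were called higher and 34.3% lower in cKO, so that 3 of 3 members called higher stands beside a background in which calls were common. With the study's added limit of 1.5 on the log2 fold change, Anp32a and Anp32e passed and Anp32b, at 1.45, did not, against 14.8% of genes called higher by that rule. These 3 values lay near the limit and their side of it turned with the setting. Anp32a was at 1.49 with DESeq2, 1.41 without CTRL library 1 and 1.39 without cKO library 3, and Anp32e was at 1.47 without cKO library 3. Anp32b was at 2.07 with scaling by library size, 1.57 with transcript counts summed per gene and 1.61 without cKO library 2.

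Markers of other cells and stages moved with this comparison. In cKO RS the summed share of 14 macrophage markers was 0.032% to 0.0547% of gene counts against 0.00283% to 0.00414% in CTRL, and 14 of 14 rose (median log2 fold change 3.82). The 10 Leydig cell markers summed to 0.00483% to 0.0504% against 0.000936% to 0.00114%, and the 12 Sertoli cell markers to 0.0126% to 0.0338% against 0.00512% to 0.00676%. The 10 late spermatid markers, among them the protamine genes Prm1 and Prm2, summed to 0.23% to 0.247% in cKO and 2.36% to 2.92% in CTRL, and 10 of 10 fell (median -3.96). The 14 spermatocyte markers summed to 0.224% to 0.244% in cKO RS and 0.197% to 0.202% in CTRL RS, with 7 rising and 4 falling (median 0.41). From CTRL Spc to CTRL RS 9 of them were called lower and 1, H1fnt, higher by 2.37 on the log2 scale. H1fnt fell by 3.37 in cKO RS. At a mean of 18760 normalized counts it weighs on that sum, which is not a measure of spermatocyte RNA alone. Of the 8 spermatogonia markers 6 rose (median 0.97). All 10 spermatid markers fell (median -1.66). The part of these differences in the values of the Anp32 genes was not tested.

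**Figure D1:**
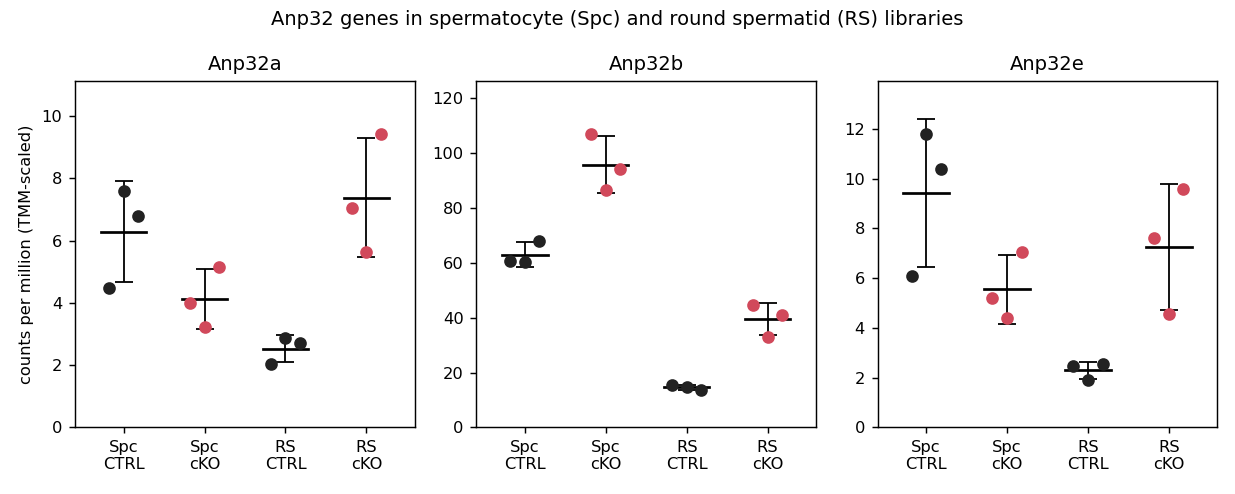
TMM-scaled CPM (linear axis) of Anp32a, Anp32b and Anp32e in the 12 spermatocyte (Spc) and round spermatid (RS) libraries, with 1 point for each library (1, 2 and 3 from left to right within a group), black for CTRL and red for cKO, and the mean with SD as bars. The 3 RS CTRL libraries are the lowest of the 12 for every gene, between 13.7 and 15.5 for Anp32b, while the 3 Spc cKO libraries are the highest for Anp32b, between 86.4 and 107.

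In Spc the members did not change together. Anp32b was at 4632, 3912 and 4232 normalized counts in cKO and at 2956, 2872 and 3247 in CTRL. Its groups did not overlap, and it rose 1.41-fold in cKO (4258 ± 361 against 3025 ± 197 in 3 libraries each, log2 fold change 0.49, SE 0.1, adjusted p = 0.013). In this comparison 14% of the 17321 genes tested were called higher and 14.1% lower.

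The means of Anp32a and Anp32e were lower in cKO Spc, but neither passed the test. Anp32a was read at 173.4, 146.2 and 231.3 in cKO and at 218.3, 361.6 and 324.4 in CTRL. Library 1 of the controls lay within the range of the cKO libraries, and the log2 fold change of -0.71 had an SE of 0.27 (183.6 ± 43.5 against 301.4 ± 74.4, adjusted p = 0.085). Anp32e was at 225.7, 198.9 and 317.6 in cKO and at 297.9, 563.3 and 494.4 in CTRL, where library 1 was again the lowest control. Its log2 fold change was -0.87 (SE 0.29, 247.4 ± 62.3 against 451.9 ± 138, adjusted p = 0.062). Without that control library both passed the test, with log2 fold changes of -0.88 for Anp32a (adjusted p = 0.042) and -1.08 for Anp32e (adjusted p = 0.023), as they also did with DESeq2.

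Sertoli cell markers were also lower in cKO Spc. Their summed share of gene counts was 0.0207%, 0.0245% and 0.0335% in the cKO Spc libraries and 0.0379%, 0.108% and 0.0872% in the CTRL libraries. Library 1 of the controls, the lowest control for Anp32a and Anp32e, was the lowest control for the summed Sertoli, Leydig, macrophage, spermatogonia and spermatocyte markers and the highest for the spermatid and late spermatid markers. Of the 12 Sertoli markers 9 fell in cKO Spc (median log2 fold change -1.65), among them the transcription factor genes Wt1 and Sox9. The summed macrophage share was 0.00654% to 0.0103% in cKO against 0.00437% to 0.00531%, the Leydig share 0.0791% to 0.165% against 0.0167% to 0.0597%, and the late spermatid share 0.0498% to 0.156% against 0.428% to 0.838%. Their part in the values of Anp32a and Anp32e was not tested.

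The genotype effect differed between the cell types for each member, as tested by the interaction of genotype and cell type over the 12 libraries. The effect in RS exceeded that in Spc by 2.15 on the log2 scale for Anp32a (SE 0.38, adjusted p = 0.0017), by 0.83 for Anp32b (SE 0.17, adjusted p = 0.0033) and by 2.42 for Anp32e (SE 0.45, adjusted p = 0.002). Scaled by library size the differences were 2.86, 1.55 and 3.14, where the median over all genes moved from -0.13 to 0.58. Among the 18171 genes tested 19% had a higher and 24.1% a lower effect in RS than in Spc. For Anp32b the difference lost its call when the libraries numbered 3 were left out (0.73, adjusted p = 0.069).

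Between the stages, each member was lower in CTRL RS than in CTRL Spc. Scaled together, Anp32b was at 583, 562.6 and 514.8 normalized counts in RS and at 2550, 2494 and 2810 in Spc. The ranges were far apart, and its level in RS was 0.211 of that in Spc (553.5 ± 35 against 2618 ± 169, log2 fold change -2.24, SE 0.09, adjusted p = 2.4e-05). Anp32e was read at 92.3, 73.27 and 95.28 in RS and at 257, 489.2 and 427.9 in Spc (log2 fold change -2.17, SE 0.27, adjusted p = 0.00036). Anp32a went from 188.3, 314 and 280.7 in Spc to 76.54, 110.5 and 101.5 in RS (log2 fold change -1.44, SE 0.25, adjusted p = 0.0015). The groups did not overlap for any of the 3 genes, and 39.7% of the 17046 genes tested were called lower and 36.2% higher in CTRL RS than in CTRL Spc. With the limit of 1.5 on the log2 fold change Anp32b and Anp32e were called and Anp32a was not, against 17% of genes called lower by that rule. Anp32a was past that limit with scaling by library size (-1.91), without Spc CTRL library 1 (-1.65) and without RS CTRL library 2 (-1.54). Sertoli and Leydig markers fell with them, 12 of 12 and 10 of 10, with medians of -3.12 and -4.9, and their part in the fall was not tested.

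In the cKO the same step between the stages differed from gene to gene. Anp32b was still lower in RS, at 2007, 1533 and 1867 against 4835, 4011 and 4478 in Spc (log2 fold change -1.3, SE 0.12, adjusted p = 0.00032). Anp32a was higher in RS, at 317.6, 263.3 and 428.1 against 181, 149.9 and 244.8 (log2 fold change 0.81, SE 0.27, adjusted p = 0.04), although the call was lost in 4 of the 6 fits that each leave out 1 library. Anp32e was at 343.2, 212.3 and 435.3 in RS and at 235.5, 203.9 and 336.1 in Spc, which overlap and did not pass the test (log2 fold change 0.35, SE 0.31, adjusted p = 0.37). Over the same step the macrophage markers went from 0.00654% to 0.0103% of gene counts in cKO Spc to 0.032% to 0.0547% in cKO RS and 14 of 14 rose (median 2.25), 8 of 10 Leydig markers fell (median -2.54) and 2 of 12 Sertoli markers rose (median 0.25), and their part in the values of the members was not tested. In the cKO 18.9% of the 17709 genes tested were called higher and 26.4% lower in RS. These comparisons share their RS and Spc libraries with those of cKO and CTRL above and are not independent of them.

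On 1 scale of TMM-scaled CPM over the 12 libraries, Anp32b was ordered Spc cKO (95.8 ± 10.4), Spc CTRL (63 ± 4.42), RS cKO (39.5 ± 5.96) and RS CTRL (14.6 ± 0.9), and no neighbours in that order overlapped. For Anp32a the order was RS cKO (7.38 ± 1.91), Spc CTRL (6.29 ± 1.62), Spc cKO (4.12 ± 0.962) and RS CTRL (2.53 ± 0.444). For Anp32e it was Spc CTRL (9.43 ± 2.97), RS cKO (7.26 ± 2.53), Spc cKO (5.55 ± 1.37) and RS CTRL (2.29 ± 0.343). In Anp32a and Anp32e the first 3 groups overlapped with their neighbours, and RS CTRL alone lay below every other library. Scaling by library size in place of TMM moved the median over all genes in RS from a log2 fold change of 0.11 to 0.73 and left each member above that median, at 2.17 for Anp32a, 2.07 for Anp32b and 2.3 for Anp32e. Over all genes that scaling called 10232 higher and 3238 lower in cKO RS, where TMM called 6713 and 6005, and it gave 8087 and 545 for the interaction (3459 and 4375 with TMM), 1587 and 2573 in CBs (2547 and 2589), 4318 and 9082 from Spc to RS in CTRL (6169 and 6775) and 4480 and 3670 in cKO (3354 and 4684). It turned the direction of no member in any comparison.

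**Figure D2:**
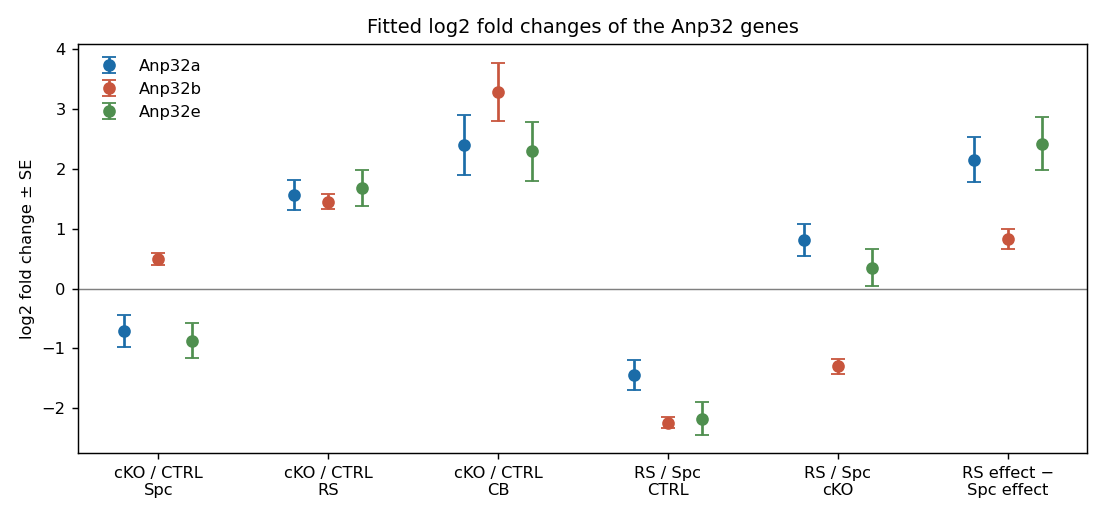
Fitted log2 fold change (points) with its SE (bars) of Anp32a, Anp32b and Anp32e in the comparisons of cKO with CTRL in Spc, RS and CBs, of RS with Spc in each genotype, and for the difference of the genotype effects. In Spc, Anp32b lies above 0 at 0.49 and Anp32a and Anp32e below it at -0.71 and -0.87, and in RS and CBs every point lies above 1; the points for CBs are a description, since Anp32b was chosen from that comparison.

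In CBs the member that was chosen for its rise, Anp32b, was at 2295, 7126 and 1179 normalized counts in the cKO libraries 2, 3 and 4 and at 303.2, 297.6, 617.3 and 240.4 in the CTRL libraries 1, 2, 3 and 5. The underlying counts were 1363, 2431 and 1037 in cKO and 385, 316, 424 and 521 in CTRL. The lowest cKO library was thus nearly 2 times the highest CTRL library, and the cKO libraries differed among themselves by more than that. The means were 3534 ± 3160 (n = 3) and 364.6 ± 171 (n = 4), and the fitted fold of 9.74 (log2 fold change 3.28, SE 0.49) ranked 25 among 14051 genes from the highest down. Without cKO library 3, the shallowest, the fold was 4.82, and over all fits that each leave out 1 library it ran up to 13.1. On the per-length scale given further below, both the rise and the lead of library 3 were smaller.

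Anp32a and Anp32e, not part of the reason for the choice but read from the same libraries, were also higher. Anp32a was at 57.26, 187.6 and 47.75 in cKO and at 9.45, 21.66, 30.57 and 12.46 in CTRL, from counts of 34, 64 and 42 against 12, 23, 21 and 27. Anp32e was at 63.99, 181.8 and 35.25 in cKO and at 22.05, 12.24, 26.21 and 13.38 in CTRL, from counts of 38, 62 and 31 against 28, 13, 18 and 29. For both, library 3 was the highest cKO library by far in normalized counts, and no cKO library overlapped with CTRL on that scale. On the per-length scale given further below, the groups of Anp32e overlapped. The fitted folds were 5.27 for Anp32a (log2 fold change 2.4, SE 0.5, rank 192) and 4.9 for Anp32e (2.29, SE 0.49, rank 241), and without cKO library 3 they were 3 and 2.73. Of the 14051 genes tested 18.1% were called higher and 18.4% lower in cKO CBs, and nothing about the members is read from those shares. At 12 to 64 counts per library, the values of Anp32a and Anp32e carry a large counting error.

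**Figure D3:**
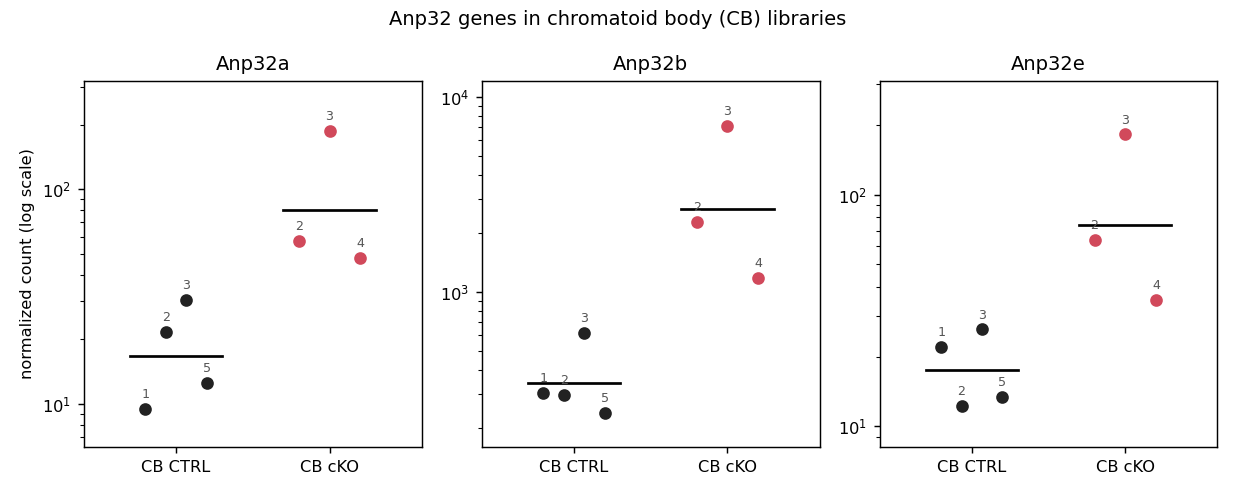
Normalized counts on a log axis of Anp32a, Anp32b and Anp32e in the CB libraries, with 1 point for each library and its column number beside it (black for the 4 CTRL, red for the 3 cKO libraries) and a line at the geometric mean of each group. In every panel cKO library 3 is the highest, at 7126 for Anp32b, and no cKO library overlaps with CTRL.

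Other RNAs moved in the same CB libraries. The late spermatid markers summed to 0.0414% to 0.0651% of gene counts in cKO and 0.277% to 0.593% in CTRL, and 10 of 10 fell (median log2 fold change -2.7). The macrophage markers summed to 0.00211% to 0.0091% against 0.00158% to 0.00199%, the Leydig markers to 0.00602% to 0.05% against 0.00227% to 0.00663% and the Sertoli markers to 0.00458% to 0.0099% against 0.00342% to 0.00382%. Of these the Leydig ranges of cKO and CTRL overlapped and the others did not. Their part in the values of the members was not tested.

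Compared per unit of length, which allows one gene to be set against another, Anp32b was the most abundant member in every group. In TPM, a per-length level computed from the deposited transcript counts and lengths with the same sum in each library, it was at 54.4 ± 5.14 in CTRL Spc, 7.59 ± 0.379 in CTRL RS and 11 ± 4.78 in CTRL CBs. Anp32a was at 12.6 ± 3.42, 3.5 ± 0.737 and a mean of 1.37 in the same groups, and Anp32e at 13 ± 4.17, 2.1 ± 0.292 and 1.23 ± 0.703. For Anp32a the 4 CTRL CB libraries ran from 0.882 to 2.27 TPM. In the cKO the TPM of Anp32b were 78.8 ± 6.25 in Spc, 36.6 ± 6.85 in RS and 47.8 ± 17.8 in CBs. For Anp32b cKO CB library 3 was at 61.65 TPM, beside 54.01 and 27.73 in libraries 2 and 4, a smaller lead than in normalized counts. Anp32a and Anp32e were at 3.2 ± 0.424 and 2.41 ± 0.804 TPM in cKO CBs. For Anp32e cKO library 4, at 1.486, lay below CTRL libraries 1 and 5, at 1.845 and 1.841. Among the genes detected in a CB library, Anp32b stood at the 98.1 to 99.8 percentile in cKO and at the 85.3 to 94.3 percentile in CTRL.

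Anp32b made up a larger share of the family in cKO Spc than in CTRL Spc. Its share of the summed TPM was 82.1% ± 3.69 in cKO and 68.5% ± 5.8 in CTRL, a difference of 13.7 percentage points with no overlap of the libraries (p = 0.1 in a two-sided exact permutation test, the smallest that 3 against 3 libraries can give). The shares of Anp32a and Anp32e were 9.06% ± 1.76 and 8.8% ± 1.94 in cKO against 15.6% ± 2.49 and 16% ± 3.34 in CTRL, differences of -6.54 and -7.16 percentage points with the same p of 0.1 in the exact permutation test. In RS the shares of cKO and CTRL overlapped for each gene, with 56.6% ± 4.23 against 57.6% ± 3.12 for Anp32b, 25.5% ± 2.95 against 26.4% ± 4.72 for Anp32a and 17.9% ± 2.5 against 16% ± 2.71 for Anp32e (exact permutation p = 0.8, 0.9 and 0.4). In CBs Anp32b held 89% ± 2.25 in cKO and 81% ± 1.41 in CTRL with no overlap, Anp32a 6.49% ± 2.18 and 10.4% ± 2.98 with overlap, and Anp32e 4.54% ± 0.178 and 8.64% ± 2.28 with no overlap, all given without a test. Anp32b was the one member whose share in CBs lay above its share in RS, in cKO as in CTRL, although CB and RS libraries differ in how they were made (total against polyadenylated RNA) and this was not tested.

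**Figure D4:**
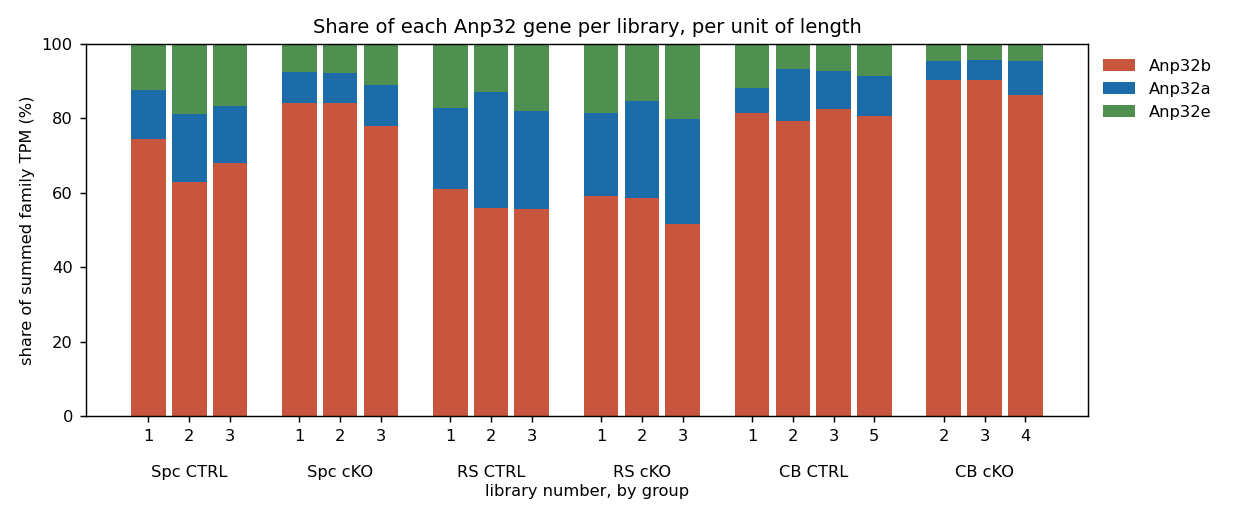
Share of each member in the summed TPM of the 3 genes (%, bars from 0 to 100) in each library, with library numbers and groups below. Anp32b (red) fills 82.1% of the mean cKO Spc library against 68.5% in CTRL, while in RS the cKO and CTRL bars are alike at 56.6% and 57.6%.

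The transcripts followed their genes. In the deposited transcript tables a read that matches several transcripts is shared equally among them, so transcripts of one gene are not independent of each other. The single transcript of Anp32b (ENSMUST00000102926, Anp32b-201, 7 exons) was at 1371 ± 238 normalized counts in cKO RS and 458.7 ± 21.6 in CTRL RS (log2 fold change 1.58, SE 0.13, adjusted p = 4.5e-05). In Spc it was at 3576 ± 336 and 2539 ± 180 (log2 fold change 0.49, SE 0.09, adjusted p = 0.013), and in CBs at 3833 ± 3590 and 346 ± 177. Across all transcripts tested, 16.1% were called higher and 12.5% lower in cKO Spc, and 38.9% were called higher in cKO RS.

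Of the 10 transcripts each of Anp32a and Anp32e, every one had a higher mean in cKO RS and a lower mean in cKO Spc. In RS only 5 transcripts of Anp32a and 3 of Anp32e had enough counts to be tested, and they reached the minimum of 20 counts in 3 libraries through the cKO libraries, since none of them had 20 counts in all 3 CTRL libraries, and no count of calls is read from them. Anp32a-201, for one, was at 84.07 ± 30.4 normalized counts in cKO RS and 25.19 ± 5.05 in CTRL RS, and Anp32e-202 at 73.55 ± 30.8 and 23.34 ± 2.9. In Spc 8 transcripts of Anp32a were tested and 1 fell, Anp32a-201 (ENSMUST00000085519), from 104.7 ± 32.5 in CTRL to 44.18 ± 8.9 (log2 fold change -1.24, SE 0.28, adjusted p = 0.021). Of 7 transcripts of Anp32e tested in Spc 2 fell, Anp32e-202 (ENSMUST00000165307, log2 fold change -1.17, SE 0.3, adjusted p = 0.03) and Anp32e-204 (ENSMUST00000168106, log2 fold change -1.16, SE 0.3, adjusted p = 0.031), whose counts were nearly equal in each group. These calls in Spc rest on the full set of libraries, since 4 of the 6 fits that leave out 1 library lost the call of Anp32a-201 and 5 of 6 those of Anp32e-202 and Anp32e-204, with adjusted p of up to 0.1. No transcript of Anp32a or Anp32e had enough counts to be tested in CBs.

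**Figure D5:**
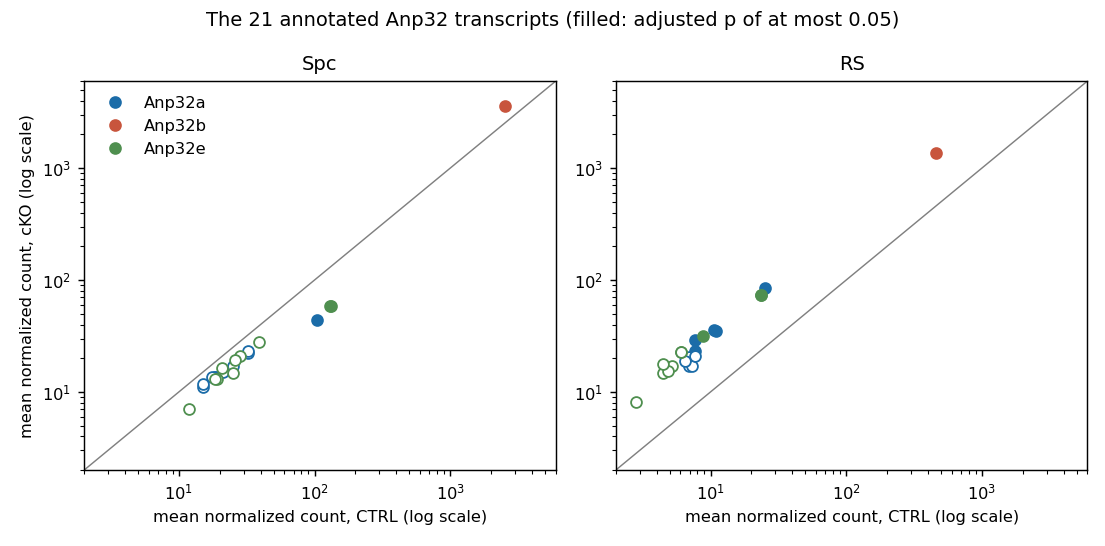
Mean normalized count of each of the 21 annotated Anp32 transcripts in cKO against CTRL (log axes, n = 3 libraries a group, diagonal where both are equal), in Spc and RS. In Spc the points of Anp32a and Anp32e lie below the diagonal and Anp32b-201 above it, and in RS every point lies above. Filled points passed the test. No call is read from filled RS points of Anp32a and Anp32e, which reached the count minimum through the cKO libraries.

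Features that are known to mark a transcript for NMD were read from the annotation. An exon junction more than 50 nt after the stop codon was found in 9.15% of the 41822 annotated transcripts with start and stop in the tables, and in 1 of the 10 such Anp32 transcripts, Anp32e-208 (ENSMUST00000170213), which is annotated as an NMD target with 46 codons and its farthest junction 72 nt after the stop. It had too few counts to be tested, with 14.66 ± 4.05 in cKO RS and 4.433 ± 0.63 in CTRL RS and with 13.01 ± 3.77 and 18.97 ± 4.83 in Spc, and its reads are shared with the other transcripts of Anp32e. Anp32b-201 had no junction after its stop codon, a 3′UTR of 503 nt against a median of 613 over all these transcripts, and 1 upstream open reading frame, a feature that 41.1% of all these transcripts had. The longest 3′UTRs of the family were 2140 nt in Anp32e-202, 2019 nt in Anp32e-204 and 1197 nt in Anp32a-201. They belonged to the 3 transcripts called lower in cKO Spc. These also had the most counts of the Anp32a and Anp32e transcripts there, with CTRL means of 131.5, 130.6 and 104.7. In RS they had higher means in cKO, as had every other Anp32 transcript. A link to the length of the 3′UTR was not tested. The 3′UTRs of Anp32a-205 and Anp32e-201 were 57 and 315 nt long. The processed copy Anp32b-ps1 was at 25 ± 26.4 normalized counts in cKO CBs and 2.202 ± 1.73 in CTRL CBs, in reads that Anp32b may share, and the copy Anp32-ps, which shares 136 bases with Anp32a, was at 28.3 ± 13.5 and 29.71 ± 7.85.

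Genes known to act with the family or in the same processes were read as 5 lists. Their counts stand beside the shares of all genes called higher and lower in cKO. These were 14% and 14.1% in Spc, 38.4% and 34.3% in RS and 18.1% and 18.4% in CBs. One list held 21 genes of H2A.Z, the variant that ANP32E removes, and of several complexes that act on it. Of these genes 3 rose and 2 fell in cKO Spc (median log2 fold change 0.04, against -0.01 over all genes), and 9 rose and 10 fell in cKO RS (-0.16 against 0.11). Ino80, the ATPase of a remodeller that acts on H2A.Z, rose by 2.68 in RS (SE 0.1, adjusted p = 4.4e-07) and by 0.98 in Spc (SE 0.12, adjusted p = 0.0029), and Kat5, the acetyltransferase of the TIP60 complex, rose by 1.68 in RS (SE 0.06, adjusted p = 3.3e-07) and 0.81 in Spc (SE 0.06, adjusted p = 0.00058). Epc2, another subunit of that complex, fell by 1.43 in RS (SE 0.32, adjusted p = 0.0042). H2afz, the main H2A.Z gene, which was named after its values were seen, fell by 0.71 in RS with TMM scaling (SE 0.07, adjusted p = 5e-05), where Anp32e rose. Under library-size scaling 12 of the 21 genes rose and 4 fell in RS, with a median of 0.46 below the 0.73 over all genes. That scaling moved the median over all genes up from 0.11, and the value of H2afz under it is not given here.

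Of 22 histone chaperones, 10 rose and 0 fell in cKO CBs (median log2 fold change 0.55 against 0.07 over all genes), beside 18.1% and 18.4% of all genes. Without cKO library 3 the counts were also 10 and 0, and under library-size scaling 7 and 0. Ptma, which encodes the acidic protein prothymosin alpha, was higher by 2.66 (SE 0.39, adjusted p = 0.00028) and Ncl, which encodes nucleolin, by 2.05 (SE 0.34, adjusted p = 0.00069). Set, an acidic chaperone that like ANP32A is known as a PP2A inhibitor, was higher by 1.94 (SE 0.38, adjusted p = 0.0018) and was named after its values were seen. Without cKO library 3 these values were lower, at 2.05 for Ptma (adjusted p = 0.00098), 1.39 for Ncl (adjusted p = 0.0019) and 1.26 for Set (adjusted p = 0.0087). In RS 10 chaperone genes rose and 9 fell (-0.1), with Asf1b, an H3-H4 chaperone, at 2.04 (SE 0.16, adjusted p = 1.1e-05) and Npm3 at -1.14 (SE 0.09, adjusted p = 1.1e-05), and under library-size scaling 14 rose and 1 fell, with a median of 0.52 below the 0.73 over all genes. Set was at -0.21 in RS (SE 0.09, adjusted p = 0.072).

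Among PP2A subunits and inhibitors 7 of 20 rose and 9 fell in cKO RS (median 0.01), 2 and 4 of 21 in Spc (-0.19) and 2 and 2 of 18 in CBs (-0.14). Under library-size scaling 12 rose and 3 fell in RS (median 0.63, against 0.73 over all genes). Ppp2r2b, a regulatory B subunit, fell by 4.03 in RS (SE 0.16, adjusted p = 4.9e-07) and by 1.83 in Spc (SE 0.34, adjusted p = 0.011), and Ppp2r4, the PP2A activator, rose by 1.35 in RS (SE 0.12, adjusted p = 3.1e-05). Of the apoptosome and its regulators 13 of 16 rose and 1 fell in RS (median 1.3 against 0.11), where 38.4% of all genes were called higher and 34.3% lower, and under library-size scaling 16 rose (median 1.93 against 0.73). Bak1, which permeabilises mitochondria, rose by 2.52 in RS (SE 0.1, adjusted p = 5.3e-07) and 1.93 in Spc (SE 0.11, adjusted p = 2e-04), and Xiap, a caspase inhibitor, by 1.91 in RS (SE 0.21, adjusted p = 9.2e-05). In Spc 2 of 15 of these genes rose and 1 fell, and in CBs 6 of 12 rose and 0 fell.

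A list of 15 genes of mRNA export held Elavl1 and Xpo1 beside many genes of export through the receptor NXF1. Of these 15 genes 8 rose and 4 fell in cKO RS (median 0.56), 3 and 1 in Spc (0.03) and 5 and 1 in CBs (0.09). Under library-size scaling 14 rose and 0 fell in RS, where the median over all genes was 0.73. The counts in CBs were 2 and 0 without cKO library 3 and 0 and 1 under library-size scaling. Alyref, an adaptor of the export receptor NXF1, rose by 1.37 in RS (SE 0.15, adjusted p = 6.9e-05), and Nxf3 fell by 2.56 in Spc (SE 0.45, adjusted p = 0.0095). From CTRL Spc to CTRL RS, where the 3 Anp32 genes fell, 13 of 15 apoptosome genes fell and 1 rose (median -1.2 against -0.08 over all genes), as did 12 of 22 histone chaperones with 2 rising (-0.55), 13 of 21 H2A.Z genes with 5 rising (-0.42) and 8 of 15 export genes with 1 rising (-0.44), while of 21 PP2A genes 8 rose and 8 fell (-0.12), beside 36.2% of all genes called higher and 39.7% lower. Under library-size scaling, where the median over all genes was -0.54, 0 rose and 14 fell in the apoptosome list, 2 and 20 among the chaperones, 2 and 16 among the H2A.Z genes, 1 and 13 among the export genes and 3 and 14 among the PP2A genes. Trrap, a scaffold of the TIP60 complex, fell by 2.85 over this step (SE 0.17, adjusted p = 3.9e-05).

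The pattern of each member over the 12 Spc and RS libraries was set beside that of the 13062 genes with a mean of at least 100 normalized counts. The genes most alike to Anp32b were Dhx9 (r = 0.997), Rpl10a (0.996), Armc8, Srrm1 and Pnpt1 (0.995 each), to Anp32a Ucp2 (0.974), Tgfb1 (0.969), Dusp6 (0.962), Ctnna1 (0.961) and Kctd12 (0.956), and to Anp32e Leprot (0.991), Traf6 (0.989), Eid1 and Agfg2 (0.986 each) and Fez2 (0.985). These Pearson correlations of log2 CPM describe the 12 libraries, which fall into 4 groups and share their depth and cell makeup. Dhx9, an RNA helicase gene, had mean CPM of 190 in CTRL Spc, 288 in cKO Spc, 45.1 in CTRL RS and 118 in cKO RS, the order seen for Anp32b. Between the members themselves r was 0.9 for Anp32a and Anp32e, 0.72 for Anp32b and Anp32e and 0.5 for Anp32a and Anp32b.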

How the data were processed

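RNA of Spc, RS and CBs was analysed, and small RNA libraries were not used. The submitters' processing notes name cutadapt 2.8, STAR 2.7.1a and featureCounts 2.0.1. For the gene analysis of these libraries the methods of the study give other versions of STAR and featureCounts. Per those methods the authors trimmed the reads and aligned them to GRCm38, counted genes with featureCounts for their gene analysis, in a table not analysed here, and ran TEtranscripts for transposable elements. The gene rows used here come from the TEtranscripts tables. The deposited gene tables hold whole-number counts, and the deposited transcript tables hold expected counts made by the authors with featureCounts, which were rounded here. The members and lists were chosen with earlier results of these data known. Genes needed 10 counts and transcripts 20 counts in at least 3 libraries. Fits used edgeR 4.0.16 in R 4.3.3 (quasi-likelihood test after TMM scaling, two-sided, with p-values adjusted by Benjamini-Hochberg over all features tested), with a call at an adjusted p of at most 0.05. The study's labels do not say which animals the libraries of a group came from, so p-values measure the spread between these libraries. No 2 libraries were alike within counting noise (chi-square of at least 9.89 for each degree of freedom within groups). Per-length levels divide transcript counts by length and scale to a fixed sum per library (TPM), which sets the scale within a library and not between groups. Of 110379 transcripts, 108214 (98%) were found in the GENCODE annotation used for sequences. Named list genes are at most the 2 highest and 2 lowest past the test per list and comparison with a mean of at least 100 normalized counts, apart from H2afz and Set. Same-numbered libraries did not deviate together in every pair of groups, so the numbers were not taken as pairing samples. The alternatives were DESeq2 1.42.0, scaling by library size, no filter on counts, gene sums of the transcript counts, the replicate number as a block and leaving out each library in turn. Each fit was tested on simulated data.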

Additional observations from a re-analysis of the deposited data

Results flagged for a closer look

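The normalized count of Anp32b in control CB library 3 was 617.3, against 240.4 to 303.2 in the other controls, a gap to the nearest control of 0.833 of the group's range, just past Dixon's critical value. In TPM, from the transcript counts, the same library was the lowest control for Anp32b, at 7.16 against 7.24, 12.7 and 17.1, and no control passed. Of the 9 values tested in this way 1 passed the limit, and chance flags about 1 in 20. The genotype effect in RS minus that in Spc was 2.15 for Anp32a, 0.83 for Anp32b and 2.42 for Anp32e on the log2 scale, each past the test of the interaction. For Anp32a and Anp32e the fitted effects lay on either side of 0 in Spc and RS, and for Anp32b they had the same sign.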

How the results depend on the processing

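Of 189 alternative values for the members at the level of genes, 180 kept their direction and their side of the threshold (in CBs, stayed within the spread between replicates). In Spc, DESeq2 gave -0.708 for Anp32a (adjusted p = 0.041) and -0.861 for Anp32e (adjusted p = 0.02), which passed where edgeR did not, and with 1 library left out they ran from -0.895 to -0.549 and from -1.077 to -0.681. From Spc to RS in the cKO, Anp32a ran from 0.604 to 1.022 with 1 library left out, and the interaction for Anp32b from 0.733 to 0.915. The difference in the RS share changed sign with 1 library left out, from -3.31 to 1.41 percentage points for Anp32a (0.638 without cKO library 1, 1.41 without CTRL library 2) and from -2.36 to 1.44 for Anp32b (0.805 without CTRL library 1, 1.44 without cKO library 3). Without division by length, the difference in the CB share of Anp32b was 4.75 percentage points instead of 8.01. Why these values moved was not tested. Over all genes, leaving out 1 Spc library lowered the counts called higher and lower from 2431 and 2448 to 1289 and 753 without cKO library 1, to 1441 and 1265 without cKO library 3 and to 1111 and 947 without CTRL library 3, while Anp32b kept its call. For the interaction they fell from 3459 and 4375 to 1860 and 2275 without the libraries numbered 2 and to 1136 and 1536 without those numbered 3. With the replicate number as a block, the log2 fold changes in RS were 1.538 for Anp32a, 1.441 for Anp32b and 1.623 for Anp32e and in Spc -0.708, 0.492 and -0.847, and the block changed no call of a member in any comparison. No paired analysis was possible for CBs because the numbers in their column headers cannot be tied to the numbered samples of the labels. Depth limits Anp32a and Anp32e in CBs, where they had 12 to 64 counts per library.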
